A study of Homo sapiens with 12 samples.

Results

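The comparison described here sets osimertinib-tolerant PC-9 cells against osimertinib-tolerant H1975 cells across all 21448 probe sets of a whole-transcript array. It rests on 6 of the 12 arrays of the series, 3 titled PC9-OR and 3 titled H1975-OR, none of which had been given SK-216. PC-9 and H1975 are human lung adenocarcinoma lines whose epidermal growth factor receptor (EGFR) carries activating mutations, and osimertinib inhibits that receptor. Both groups were cells still alive at day 8 of culture in 0.5 µM osimertinib, that is after 1 week of drug, per the labels, and 250 ng of total RNA was labelled per array. The remaining 6 arrays hold the same 2 kinds of tolerant cells 48 h after 100 µM SK-216, a compound named only by its code. These arrays serve here as another reading of the same line difference. Their source names speak of naive cells, where their titles and treatment texts speak of tolerant ones. Every group had therefore received osimertinib, and no untreated cells of either line are part of the comparison, so what a line was before the drug and what the drug selected or changed in it cannot be told apart. The labels do not say whether the 3 arrays of a line came from separate cultures. The p-values therefore speak of array-to-array spread, part or all of which may be technical.

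A cancer line keeps much of the gene program of its tissue of origin, and adenocarcinoma lines range from epithelial cells, held together by E-cadherin junctions, to mesenchymal cells rich in vimentin. Cells that outlive EGFR inhibition can depend on other inputs, such as other receptor tyrosine kinases, stress programs or a change of lineage. The activity of such programs can be read from their known target genes, and some gene lists below hold mainly such targets. Others hold mainly receptors, ligands and further parts of a pathway. Counts in those lists describe the RNA levels of the parts, not the activity of the pathway. All levels are the deposited log2 signals, and all differences are tolerant PC-9 minus tolerant H1975 on the log2 scale. Differences are given ± the standard error of a limma fit of all 12 arrays, with 3 in each group. The estimate of spread thus draws on the SK-216 arrays as well. A call is an adjusted p below 0.05 (Benjamini-Hochberg, over all probe sets). Negative differences are higher in H1975.

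The 6 array medians lay between 6.56 and 6.62. Across probe sets the correlation r of 2 H1975 arrays was 0.9949 to 0.9953 and that of 2 PC-9 arrays 0.9934 to 0.9939. A PC-9 array and an H1975 array correlated at 0.9282 to 0.9309. Of the 21448 probe sets, 9433 (44%) were called, 4573 (21.3%) as higher in PC-9 and 4860 (22.7%) as higher in H1975. A call together with a difference of at least 2-fold was made for 2100 probe sets (9.79%) higher in PC-9 and 2448 (11.4%) higher in H1975. The arrays of the 2 lines did not overlap for 10777 probe sets (50.2%). These shares are the background against which each gene list is read. The median difference over all probe sets was 0.02. To mark the level of genes that such cells do not express, the 348 olfactory receptor probe sets were used: their median was 3.63 and their 95th percentile 5.16, which is called the background level below. Where a gene lies at that level in 1 line, its difference is limited by the background and is not the full ratio of its RNA.

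Of the 30 largest differences, 15 in each direction, 24 were of genes at 10 or more in 1 line and at the background level on all 3 arrays of the other. AKR1C2, an aldo-keto reductase that reduces steroids and reactive carbonyls, read 5.03, 3.66 and 4.53 in the H1975 arrays and 15.15, 15.29 and 15.24 in the PC-9 arrays. IFI27, a mitochondrial protein induced by interferon, read 14.44, 14.41 and 14.59 in the H1975 arrays and 5.02, 4.32 and 4.64 in the PC-9 arrays. XAGE1B, a cancer-testis antigen normally restricted to the germ line, read 15.06, 15.14 and 15 in the H1975 arrays and 4.03, 3.95 and 3.52 in the PC-9 arrays. In each of these 3 genes the low line stayed under the background level on every array and the lines were separated by more than 8 log2 units on every array. Of 351 probe sets called with a difference of at least 16-fold, 210 were higher in PC-9 and 141 in H1975. By the rule of all 3 arrays at or under the background level in 1 line and all 3 at 10 or more in the other, 42 probe sets (38 named) were high in PC-9 alone and 29 (27 named) in H1975 alone.

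**Figure D1:**
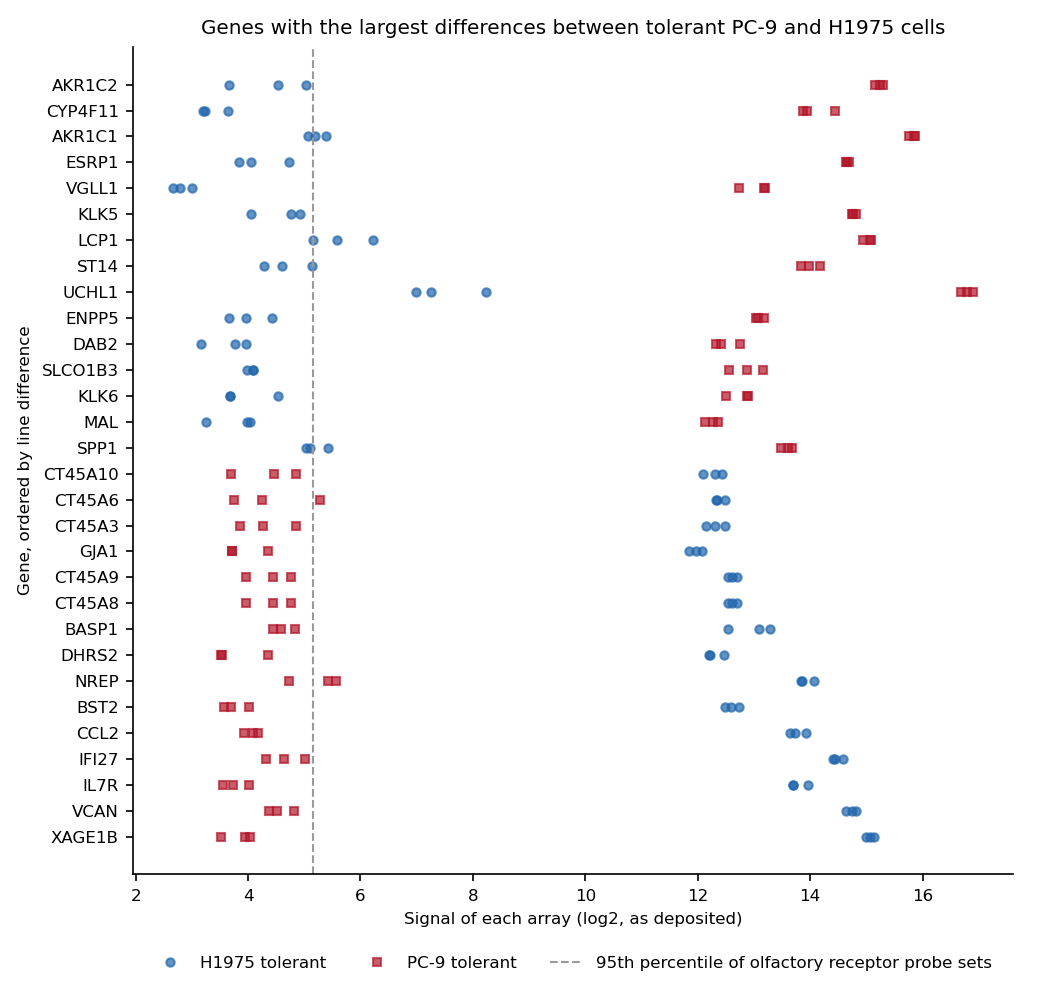
Deposited log2 signal of each tolerant array (x axis) for the 15 named genes with the largest difference in each direction (y axis), with circles for the 3 H1975 arrays, squares for the 3 PC-9 arrays and a dashed line at 5.16, the 95th percentile of olfactory receptor probe sets. The 2 clouds of every gene are apart, and for most genes the low line lies near or under the dashed line.

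Among the 15 genes highest in PC-9 relative to H1975 were the reductases AKR1C1 (difference 10.61 ± 0.13) and AKR1C2 (10.82 ± 0.21) and the fatty acid hydroxylase CYP4F11 (10.73 ± 0.17). AKR1C1 and AKR1C2 are near-identical in sequence, so the signal between them is uncertain. The epithelial splicing regulator ESRP1 (10.45 ± 0.21), the membrane protease ST14 (9.32 ± 0.25) and the secreted kallikreins KLK5 (10.19 ± 0.25) and KLK6 (8.80 ± 0.20) were in the same group. So were the TEAD cofactor VGLL1 (10.21 ± 0.19), the deubiquitinase UCHL1 (9.29 ± 0.21), the actin bundler LCP1 (9.38 ± 0.18), the organic anion transporter SLCO1B3 (8.81 ± 0.22), the endocytic adaptor DAB2 (8.86 ± 0.27) and osteopontin, SPP1 (8.40 ± 0.15). The 15 genes highest in H1975 held the matrix proteoglycan VCAN (-10.16 ± 0.18), the interleukin 7 receptor IL7R (-10.01 ± 0.17), the monocyte chemoattractant CCL2 (-9.71 ± 0.17), the antiviral tether BST2 (-8.85 ± 0.18), connexin 43, GJA1 (-8.03 ± 0.18), and the dehydrogenase DHRS2 (-8.48 ± 0.21). They also held 5 probe sets of the CT45A cancer-testis cluster, near-identical copies of which some carried the same values, so that they cannot be read as separate genes. No adjusted p among these 30 genes was above 1.08e-17.

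The labelled cell types were checked with marker lists. All 12 epithelial markers were called higher in PC-9, with sums of log2 levels over the list of 164.9 to 165.72 in the PC-9 arrays and 112.49 to 113.26 in the H1975 arrays. H1975 was not without epithelial genes: KRT8 and KRT18, the keratins of simple epithelia, differed by 0.18 and 0.35. Lung adenocarcinoma markers were mostly absent. Of 10 measured, 5 were at the background level in both lines, and 4 were called higher in H1975: NKX2-1, ROS1, HOPX and SLC34A2. NKX2-1, the transcription factor that defines lung epithelium, read 5.46, 5.20 and 4.64 in the H1975 arrays and 4.22, 4.55 and 3.74 in the PC-9 arrays, at or near the background level throughout. The aspartic protease NAPSA, its usual companion, read 4.25, 3.63 and 3.94 in the H1975 arrays and 3.87, 4.20 and 3.81 in the PC-9 arrays, and the lines overlapped (adjusted p = 0.955). Of the leukocyte markers 6 of 13 were at background in both lines, PTPRC and CD3D among them, with sums of 70.25 to 71.12 in H1975 and 69.79 to 71.41 in PC-9. CD14 and CD68 were called higher in H1975 and LYZ in PC-9. The fibroblast list had 7 of 10 markers at background in both lines, the collagens COL1A1 and COL1A2 not among these, and sums of 50.62 to 51.66 in H1975 and 45.54 to 47.32 in PC-9. Of these 10, COL1A1, COL1A2, PDGFRB and POSTN were called higher in H1975 and 0 in PC-9, with a median of -0.37. By the count at background, PDGFRB and POSTN cannot both have been above that level. The endothelial list had 3 of 10 at background in both lines and sums of 51.26 to 52.44 and 55.63 to 57.32, with CDH5 and ESAM called higher in PC-9. The neuroendocrine list had 3 of 7 at background in both, with NCAM1 higher in PC-9. The squamous list had 5 of 6 at background in both, with KRT5 and TRIM29 called higher in PC-9. KRT5 was among those at background, so its call is a difference within that level. The part of other cell types in the line difference was not tested.

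The epithelial junction and polarity genes had the largest median difference toward PC-9 of the 47 gene lists. Of the 37 probe sets of the junction and polarity list 31 (83.8%, against 21.3% over all probe sets) were called higher in PC-9 and 2 (5.41%) in H1975, with a median difference of 1.95. ESRP1, which sets epithelial splice forms, read 4.73, 4.05 and 3.84 in the H1975 arrays and 14.69, 14.65 and 14.64 in the PC-9 arrays. EPCAM, the epithelial adhesion molecule, read 8.03, 7.98 and 8.53 in the H1975 arrays and 15.31, 15.29 and 15.26 in the PC-9 arrays. CDH1, which encodes E-cadherin, read 7.73, 7.46 and 7.56 in the H1975 arrays and 11.97, 12.01 and 11.88 in the PC-9 arrays. ESRP1 was at the background level in H1975, whereas EPCAM and CDH1 were above it in both lines and never overlapped between them. Their differences were 10.45 ± 0.21, 7.11 ± 0.13 and 4.37 ± 0.13. In H1975 12 of the 37 lay at the background level, and in PC-9 2. The exceptions were the desmosome genes DSG2 (-0.35 ± 0.10) and DSP (-0.35 ± 0.11), whose calls were lost without PC-9 array 2 (adjusted p = 0.0679 and 0.0704) and, for DSP, also without H1975 array 1 (0.116). Of 19 keratin probe sets 9 (47.4%) were called higher in PC-9 and 0 in H1975, with a median of 0.25 and 11 at background in both lines. Without the dimmest probe sets that median was 0.76. The keratins KRT19 (2.85 ± 0.10) and KRT7 (2.04 ± 0.08) of simple epithelium and KRT80 (1.82 ± 0.15) had the largest differences. In the basal and squamous list 9 of 25 (36%) were higher in PC-9 and 3 (12%) in H1975. TRIM29 (6.26 ± 0.17), the desmosomal cadherin DSC2 (5.84 ± 0.17) and SERPINB5 (4.72 ± 0.21) were higher in PC-9. The squamous cell carcinoma antigens SERPINB3 (-4.85 ± 0.26) and SERPINB4 (-5.81 ± 0.19), which are near-identical, and S100A2 (-1.27 ± 0.21) were higher in H1975.

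The mesenchymal genes did not form 1 block. Of 32 probe sets 15 (46.9%, against 22.7%) were called higher in H1975 and 7 (21.9%) in PC-9, with a median of -0.24, or -0.54 without the dimmest probe sets. VIM, the intermediate filament vimentin, read 15.78, 15.75 and 15.72 in the H1975 arrays and 8.87, 9.57 and 9.64 in the PC-9 arrays. ZEB1, the repressor of epithelial genes, read 11.87, 12.13 and 11.95 in the H1975 arrays and 4.65, 5.76 and 4.76 in the PC-9 arrays. CDH2, which encodes N-cadherin, read 4.70, 4.86 and 5.33 in the H1975 arrays and 11.37, 11.30 and 11.29 in the PC-9 arrays. Vimentin and ZEB1 were thus higher in every H1975 array than in any PC-9 array, while N-cadherin, by convention a mesenchymal marker, was the reverse and lay at or near background in H1975. The collagen cross-linker LOX (-7.16 ± 0.15) lay on the H1975 side. The receptor kinase AXL (3.70 ± 0.15) and its ligand GAS6 (2.31 ± 0.19) lay on the PC-9 side. Of 23 probe sets of integrins, which bind the matrix, 6 (26.1%) were called higher in PC-9 and 5 (21.7%) in H1975. ITGB3 (-5.14 ± 0.18) and ITGA5 (-3.82 ± 0.11) were higher in H1975, and ITGB8 (6.08 ± 0.29), ITGB6 (5.28 ± 0.25) and ITGB4 (2.94 ± 0.25) in PC-9. Of 35 collagen and laminin probe sets 7 (20.0%) were called higher in PC-9 and 6 (17.1%) in H1975. Both shares were below the 21.3% and 22.7% over all probe sets, and 15 lay at background in both lines. The laminin chain LAMB1 (8.36 ± 0.23) and the basement membrane collagens COL4A6 (4.47 ± 0.25) and COL4A5 (2.94 ± 0.19) were higher in PC-9, and the interstitial collagens COL12A1 (-4.27 ± 0.13), COL1A1 (-2.69 ± 0.21) and COL5A1 (-1.78 ± 0.16) in H1975.

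Many lineage genes outside the epithelial program were at background in both lines. Of 25 alveolar and surfactant probe sets 10 were at background in both lines, 8 (32.0%) were called higher in H1975 and 1 (4.00%) in PC-9. That 1 was FOXA1, a pioneer factor of endodermal epithelium, which read 4.53, 5.50 and 4.73 in the H1975 arrays and 9.84, 9.73 and 9.21 in the PC-9 arrays. It lay at or near the background level in H1975 and above 9 in every PC-9 array. On the H1975 side were the surfactant lipid transporter ABCA3 (-4.27 ± 0.21), the receptor ROS1 (-2.95 ± 0.29) and the acyltransferase LPCAT1 (-2.49 ± 0.16). Of 29 airway secretory and mucin probe sets 21 were at background in both lines, and the secretory regulator CREB3L1 (-4.48 ± 0.28) had the largest difference, higher in H1975. Of 28 gut and liver probe sets 16 were at background in both, and the protease inhibitor SERPINA1 (-6.89 ± 0.20) was the largest difference, higher in H1975. In the neuroendocrine and neuronal list 12 of 25 were at background in both, 4 (16%) were called higher in PC-9 and 2 (8%) in H1975, both shares below those over all probe sets. UCHL1 (9.29 ± 0.21), the microtubule protein MAP2 (4.13 ± 0.15) and the adhesion molecule NCAM1 (2.14 ± 0.23) were higher in PC-9, as was the neurofilament NEFH (1.62 ± 0.23, named for the small count after its value was seen). The synaptic vesicle protein SYT1 (-1.27 ± 0.24) and the secretogranin SCG5 (-0.82 ± 0.25) were higher in H1975. Of 23 HOX probe sets, which mark body position, 14 were at background in both lines. HOXB7 (4.10 ± 0.26) was higher in PC-9, and HOXD4 (-2.55 ± 0.21) and HOXC13 (-2.41 ± 0.26) in H1975. Of 33 cancer-testis probe sets 9 (27.3%) were called higher in PC-9 and 5 (15.2%) in H1975, and 14 were at background in both lines. MAGEA6 (7.04 ± 0.20) and MAGEA3 (6.04 ± 0.19), near-identical copies, and the RNA-binding IGF2BP1 (6.91 ± 0.19) were higher in PC-9, and XAGE1B and CT45A1 (-7.30 ± 0.21) in H1975.

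**Figure D2:**
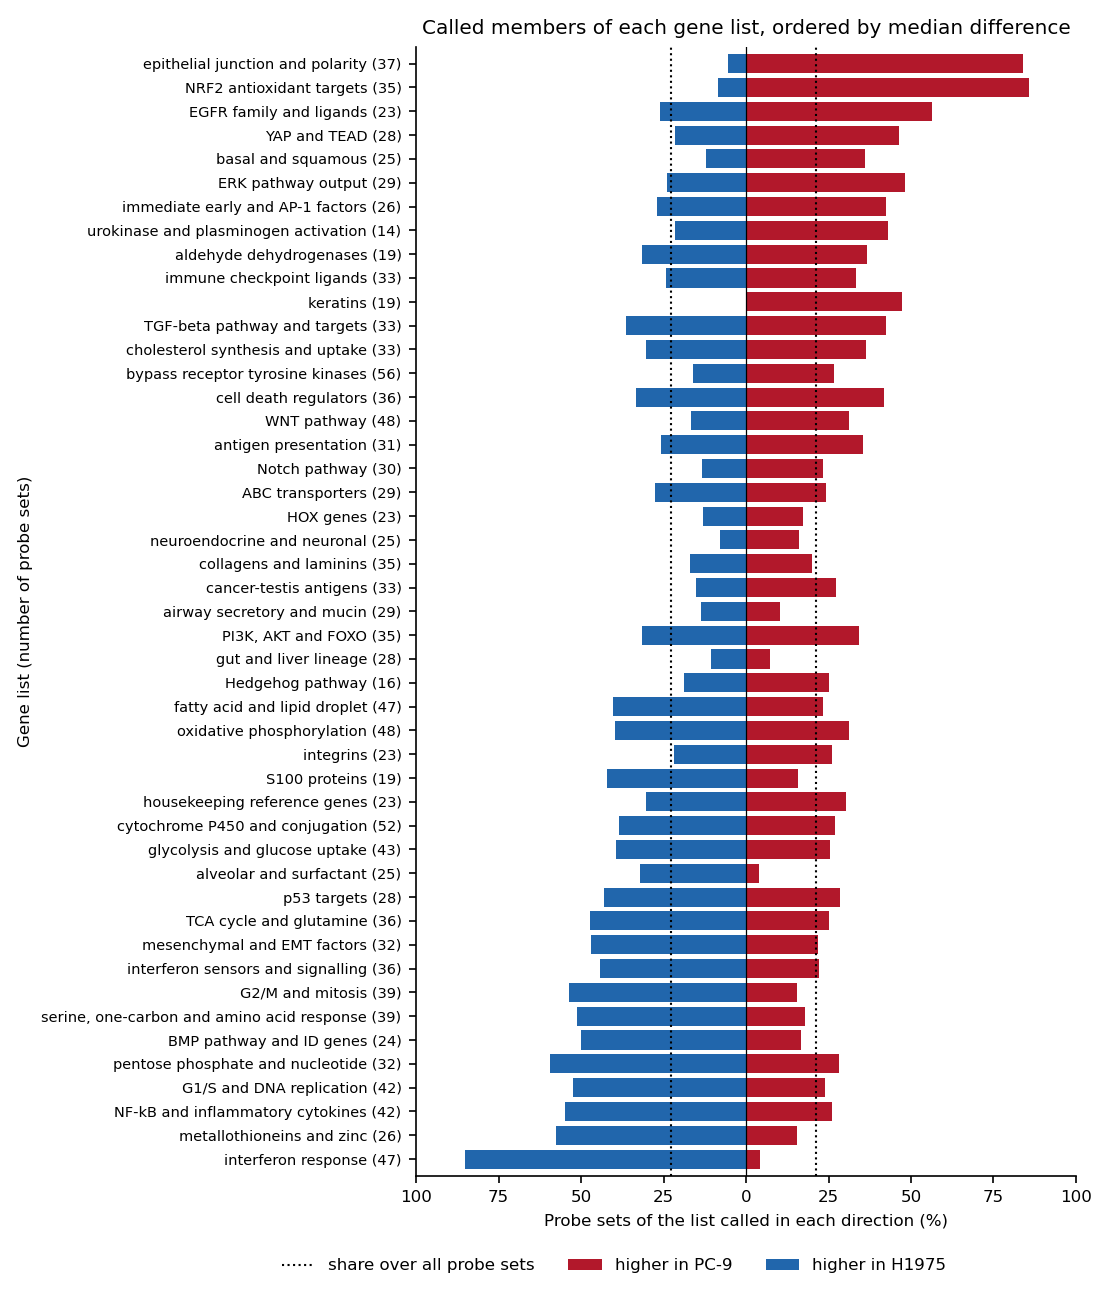
Percent of the probe sets of each of 47 gene lists (y axis, number of probe sets in brackets, ordered by median difference) that were called higher in PC-9 (bars to the right) or higher in H1975 (bars to the left), with dotted lines at the shares over all probe sets, 21.3% and 22.7%. The epithelial junction and NRF2 lists stand furthest to the right, and the interferon response list furthest to the left.

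The target of the drug and its relatives differed in level between the lines. EGFR itself read 10.72, 10.77 and 10.50 in the H1975 arrays and 12.02, 11.64 and 11.94 in the PC-9 arrays, with a difference of 1.20 ± 0.12 and no overlap. ERBB3, the kinase-poor partner that couples EGFR and ERBB2 to PI3K, read 5.04, 5.43 and 5.59 in the H1975 arrays and 12.01, 11.96 and 12.16 in the PC-9 arrays. LRIG1, which promotes the breakdown of EGFR, read 11.89, 11.78 and 11.77 in the H1975 arrays and 5.53, 5.35 and 5.08 in the PC-9 arrays. ERBB3 was thus near the background level in H1975 and LRIG1 near it in PC-9. Of 23 probe sets of the EGFR family and its ligands 13 (56.5%, against 21.3%) were called higher in PC-9 and 6 (26.1%) in H1975. The ligands split: TGFA (1.74 ± 0.15) and NRG4 (2.07 ± 0.27) were higher in PC-9, and EREG (-2.90 ± 0.21) and NRG1 (-3.80 ± 0.19) in H1975. ERBB2 was not matched to a named probe set.

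Among other receptor kinases, whose signals can stand in for EGFR, 15 of 56 probe sets (26.8%) were called higher in PC-9 and 9 (16.1%) in H1975. MET, the hepatocyte growth factor receptor, was higher in PC-9 (0.95 ± 0.08), and the low-level FGFR1 was higher in H1975 (-1.01 ± 0.21). IGF1R did not differ to a degree that could be called (0.09 ± 0.14, adjusted p = 0.661). AXL read 9.90, 9.89 and 9.62 in the H1975 arrays and 13.93, 13.14 and 13.45 in the PC-9 arrays, at least 3 log2 units apart between any 2 arrays of different lines. The growth factors FGF2 (6.52 ± 0.22) and PDGFB (4.75 ± 0.19) and the receptor EPHA4 (3.74 ± 0.27) were the largest on the PC-9 side. DDR2 (-2.74 ± 0.20), a collagen receptor, and INSR (-2.19 ± 0.21) were, with ROS1, the largest on the H1975 side.

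Genes driven by ERK, the kinase at the end of the RAS cascade, went both ways. Of 29 probe sets 14 (48.3%) were called higher in PC-9 and 7 (24.1%) in H1975, with a median of 0.34. MYC, which drives growth genes, read 15.55, 15.62 and 15.54 in the H1975 arrays and 11.05, 11.34 and 10.92 in the PC-9 arrays. CCND1, cyclin D1, read 11.84, 12.08 and 11.69 in the H1975 arrays and 14.77, 14.47 and 14.34 in the PC-9 arrays. The 2 genes were thus opposite, MYC higher in every H1975 array and CCND1 in every PC-9 array. The phosphatase DUSP1 (2.63 ± 0.16) was higher in PC-9, and the ETS factor ETV1 (-2.36 ± 0.20) in H1975. Of 26 immediate early and AP-1 factors 11 (42.3%) were higher in PC-9, led by BATF (3.37 ± 0.20), KLF5 (2.12 ± 0.14) and FOSL1 (2.03 ± 0.16), and 7 (26.9%) in H1975, led by KLF6 (-2.13 ± 0.13), IER2 (-1.76 ± 0.17) and JUNB (-1.76 ± 0.15). The AP-1 site TGANTCA was present on either strand in 1 of 21 promoters of these factors (4.76%) and in 7.76% of all promoters of the same 300 bases.

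In the PI3K, AKT and FOXO list 12 of 35 probe sets (34.3%) were called higher in PC-9 and 11 (31.4%) in H1975. The phosphatase INPP4B, which removes a PI3K lipid product, read 4.45, 3.50 and 4.17 in the H1975 arrays and 12.38, 12.07 and 11.93 in the PC-9 arrays, at background in H1975 only. The mTOR inhibitor DEPTOR (-4.80 ± 0.21) and the kinase AKT1 (-1.44 ± 0.12) were higher in H1975, whereas AKT2 (1.94 ± 0.14) and the adaptor IRS1 (1.68 ± 0.21) were higher in PC-9. YAP and TEAD factors and targets, which report cell tension and contact, were called higher in PC-9 for 13 of 28 (46.4%) and in H1975 for 6 (21.4%). The TEAD cofactors VGLL1 and VGLL3 (7.53 ± 0.26) and the angiomotin AMOTL1 (5.80 ± 0.24) were higher in PC-9, while the upstream tumour suppressor NF2 (-3.35 ± 0.13) and the target ANKRD1 (-2.30 ± 0.11) were higher in H1975.

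Of the TGF-beta family, the TGF-beta list was mixed, with 14 of 33 (42.4%) higher in PC-9 and 12 (36.4%) in H1975. The protease inhibitor SERPINE2 (8.00 ± 0.18) and the metalloprotease inhibitor TIMP3 (6.18 ± 0.29) were higher in PC-9, and the matrix protein TGFBI (-2.16 ± 0.07) and the latency protein LTBP1 (-2.38 ± 0.17) in H1975. The BMP list leaned to H1975, with 12 of 24 (50%) against 4 (16.7%) and a median of -0.42, or -0.82 without the dimmest probe sets. ID1, a BMP target that blocks differentiation factors, read 12.77, 12.39 and 12.73 in the H1975 arrays and 7.36, 7.86 and 7.39 in the PC-9 arrays. ID2, its relative, read 9.65, 9.58 and 10.07 in the H1975 arrays and 4.63, 4.67 and 4.93 in the PC-9 arrays. The ligand BMP4 read 7.90, 7.73 and 9.12 in the H1975 arrays and 12.65, 12.35 and 12.22 in the PC-9 arrays. ID1 and ID2 were thus higher in every H1975 array and the ligand BMP4 in every PC-9 array, while the ligand BMP2 (-3.43 ± 0.28) lay on the H1975 side. The others higher in PC-9 were the BMP antagonists CHRDL1 (3.91 ± 0.21) and GREM1 (1.41 ± 0.25, named for the small count after its value was seen) and ID4 (1.70 ± 0.21). Of 48 WNT probe sets 15 (31.2%) were higher in PC-9, led by the secreted DKK3 (3.76 ± 0.24), the receptor LGR5 (3.69 ± 0.28) and the ligand WNT7B (3.61 ± 0.25), and 8 (16.7%) in H1975, led by RNF43 (-4.21 ± 0.21), which removes WNT receptors. The Notch list had 7 of 30 (23.3%) called higher in PC-9 and 4 (13.3%) in H1975. Its ligand JAG1 (-3.63 ± 0.18) and target HES1 (-1.54 ± 0.14) were higher in H1975, and the coactivators MAML2 (2.50 ± 0.15) and MAML3 (2.01 ± 0.23) in PC-9. In the Hedgehog list GLI3 (-3.89 ± 0.20) and PTCH1 (-1.10 ± 0.13) were higher in H1975 and SMO (1.81 ± 0.27) in PC-9.

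**Figure D3:**
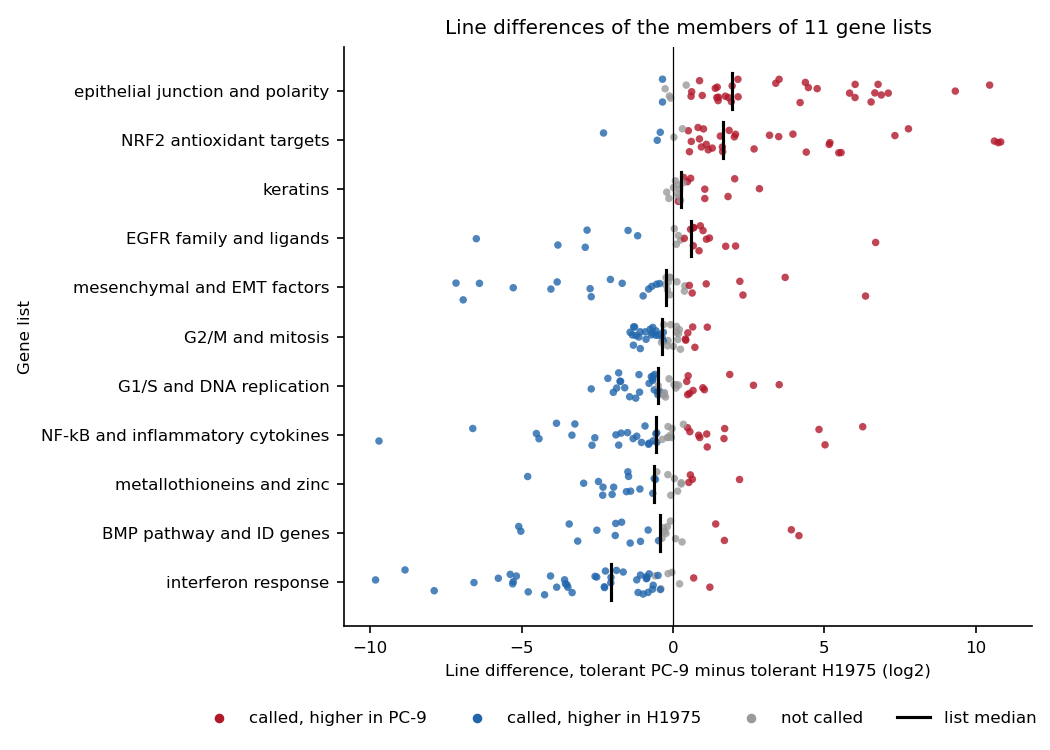
Line difference on the log2 scale (x axis, tolerant PC-9 minus tolerant H1975) of every probe set of 11 gene lists (y axis), coloured by call, with a black bar at each list's median. Most members of the epithelial junction and NRF2 lists lie right of 0 and most interferon response members left of it, while the mesenchymal and EGFR family lists have members far out on both sides.

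Antioxidant genes had the highest share of calls toward PC-9 of the 47 gene lists. NRF2 is a transcription factor that is held down by KEAP1 and, when released, drives glutathione synthesis, NADPH supply and detoxification through antioxidant response elements. The list of its targets also holds NRF2 itself (NFE2L2) and KEAP1. Of its 35 probe sets 30 (85.7%, against 21.3%) were called higher in PC-9 and 3 (8.57%) in H1975, with a median of 1.64. The near-identical AKR1C1 and AKR1C2 and other aldo-keto reductases are separate members, so shared signal may count more than once. The element TGACNNNGC was present on either strand in 8 of the 25 list members with a promoter in the RefSeq table (32.0%) and in 13.6% of all 27305 promoters, each 250 bases before to 50 after the start. It was found in 7 of the 22 members higher in PC-9 and 0 of the 2 higher in H1975. Stretches of 110 bases (RefSeq, GRCh38.p14, gene strand, 5′ to 3′) are shown for 3 members that hold it and that were among those higher in PC-9, with the match in capitals: CYP4F11 at chr19:15934990-15935099 (minus strand), GPX2 at chr14:64942834-64942943 (minus strand) and GCLM at chr1:93909431-93909540 (minus strand).
CYP4F11: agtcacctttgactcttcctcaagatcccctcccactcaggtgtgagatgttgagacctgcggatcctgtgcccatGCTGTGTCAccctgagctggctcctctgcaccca
GPX2: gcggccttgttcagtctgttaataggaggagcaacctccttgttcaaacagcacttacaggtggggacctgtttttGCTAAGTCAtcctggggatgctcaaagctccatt
GCLM: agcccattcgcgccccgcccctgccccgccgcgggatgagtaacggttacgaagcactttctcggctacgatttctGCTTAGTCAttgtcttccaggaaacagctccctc
In these 3 stretches the match reads from its opposite strand, ending in TCA, and differs in its free bases. CYP4F11 read 3.64, 3.20 and 3.23 in the H1975 arrays and 14.45, 13.87 and 13.95 in the PC-9 arrays. GPX2, a glutathione peroxidase of epithelia that is named for its promoter after its values were seen, read 5.04, 4.46 and 5.88 in the H1975 arrays and 12.46, 12.41 and 12.49 in the PC-9 arrays. GCLM, the regulatory subunit of the enzyme that limits glutathione synthesis, read 7.57, 7.52 and 7.70 in the H1975 arrays and 11.55, 11.70 and 11.42 in the PC-9 arrays. The arrays of the lines did not overlap for any of the 3, and CYP4F11 was at the background level in H1975. The 3 members called higher in H1975 were HMOX1, the haem oxygenase that is also a classical NRF2 target (-2.29 ± 0.24), UGDH (-0.42 ± 0.10) and KEAP1 itself (-0.52 ± 0.13).

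Further members of the same list bear on glutathione and NADPH supply, and genes outside it went both ways. The cystine importer SLC7A11, which feeds glutathione synthesis, read 10.24, 10.43 and 10.29 in the H1975 arrays and 15.98, 15.77 and 15.86 in the PC-9 arrays. It was higher in every PC-9 array, by 5.55 ± 0.09. The pentose phosphate enzyme PGD (3.19 ± 0.12) and the NADP-dependent malic enzyme ME1 (1.64 ± 0.12), both suppliers of NADPH, were higher in PC-9. These 3 are among the 30 list members counted above, as are ALDH3A1 and ABCC2 below. Of 19 aldehyde dehydrogenases 7 (36.8%) were called higher in PC-9 and 6 (31.6%) in H1975. ALDH1A3 (6.53 ± 0.17), ALDH3A1 (4.40 ± 0.21) and ALDH3A2 (2.30 ± 0.09) were higher in PC-9, whereas ALDH1L2 (-3.95 ± 0.26), ALDH9A1 (-2.10 ± 0.12) and ALDH18A1 (-2.03 ± 0.10) were higher in H1975. ALDH1A1, often used to mark persister or stem-like cells, was low in both and overlapped, reading 5.59, 5.86 and 5.88 in the H1975 arrays and 5.81, 6.14 and 6.33 in the PC-9 arrays (adjusted p = 0.295). In the wider list of cytochrome P450 and conjugating enzymes 14 of 52 (26.9%) were higher in PC-9, among them CYP4F3 (5.03 ± 0.20) and CYP4F2 (3.91 ± 0.24), paralogs of CYP4F11, and 20 (38.5%) in H1975. Of the ABC transporters, not all of which export drugs, ABCC2 (5.47 ± 0.22) was higher in PC-9. ABCA3, ABCB10 (-2.44 ± 0.20) and ABCA1 (-2.17 ± 0.23) were higher in H1975. The ABC list had 7 of 29 (24.1%) called higher in PC-9 and 8 (27.6%) in H1975, near the 21.3% and 22.7% over all probe sets.

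The remaining metabolic lists leaned to H1975 or were mixed. Of 39 probe sets for serine synthesis, one-carbon units and the amino acid response 20 (51.3%, against 22.7%) were called higher in H1975 and 7 (17.9%) in PC-9. The stress pseudokinase TRIB3 (-2.93 ± 0.18), the mitochondrial folate enzyme ALDH1L2 and the arginine synthesis enzyme ASS1 (-2.44 ± 0.09) were higher in H1975, and the transporters SLC7A11 and SLC7A5 (2.31 ± 0.09) in PC-9. In the pentose phosphate and nucleotide list 19 of 32 (59.4%) were higher in H1975, including the salvage enzymes PNP (-3.37 ± 0.14) and UPP1 (-2.55 ± 0.12), and 9 (28.1%) in PC-9, including NT5E (2.21 ± 0.13), the ectonucleotidase CD73, and CDA (2.55 ± 0.18). For glycolysis and glucose uptake 17 of 43 (39.5%) were higher in H1975, among them hexokinase 2, HK2 (-2.94 ± 0.20), and 11 (25.6%) in PC-9, among them the transporters SLC2A10 (5.75 ± 0.23) and SLC2A12 (3.23 ± 0.14). The TCA cycle and glutamine list had 17 of 36 (47.2%) higher in H1975, among them GLUD1 (-1.94 ± 0.11) and GOT1 (-2.00 ± 0.15), and 9 (25%) in PC-9, among them glutamine synthetase, GLUL (2.66 ± 0.14). Oxidative phosphorylation subunits were balanced, 15 of 48 (31.2%) higher in PC-9 and 19 (39.6%) in H1975, with a median of -0.01.

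Lipid genes held some of the widest gaps. PLIN2, which coats lipid droplets, read 12.85, 12.86 and 13.08 in the H1975 arrays and 5.16, 5.29 and 4.75 in the PC-9 arrays. SCD5, a desaturase that makes monounsaturated fatty acids, read 5.71, 6.40 and 6.25 in the H1975 arrays and 13.09, 13.13 and 12.79 in the PC-9 arrays. The 2 genes were opposite in every array. In the fatty acid and lipid droplet list 19 of 47 (40.4%) were called higher in H1975, including the elongase ELOVL6 (-4.01 ± 0.14), and 11 (23.4%) in PC-9, including the elongase ELOVL7 (5.43 ± 0.23). Of 33 cholesterol probe sets 12 (36.4%) were higher in PC-9, among them the synthesis enzymes TM7SF2 (2.69 ± 0.18), HMGCS1 (2.56 ± 0.10) and MSMO1 (2.43 ± 0.09), and 10 (30.3%) in H1975, among them PMVK (-2.07 ± 0.24) and the carriers STARD4 (-2.44 ± 0.26) and ABCA1.

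Metallothioneins, small proteins that bind zinc and copper, were higher in H1975. In the list of metallothioneins and zinc transporters 15 of 26 (57.7%) were called higher in H1975 and 4 (15.4%) in PC-9. MT1E read 15.48, 15.21 and 15.43 in the H1975 arrays and 10.67, 10.69 and 10.37 in the PC-9 arrays, apart by more than 4 log2 units. Its neighbours MT2A, MT1L, MT1M, MT1B, MT1F, MT1G and MT1H were called in the same direction, with differences in this run of 8 genes between -4.80 and -1.40. These copies are near-identical, so their separate levels are uncertain. The zinc importers SLC39A14 (-2.95 ± 0.17) and SLC39A8 (-2.46 ± 0.14) were also higher in H1975, and the 4 called higher in PC-9 were SLC39A11 (2.20 ± 0.16), SLC39A4 (0.64 ± 0.16), SLC30A3 (0.57 ± 0.21) and the zinc-sensing factor MTF1 (0.52 ± 0.12, named for the small count after its value was seen). The call of SLC30A3 was lost without array 2 or 3 of either line, with adjusted p between 0.0581 and 0.142.

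Interferon-stimulated genes had the largest median difference toward H1975 of the 47 gene lists. Interferons act through cell-surface receptors and JAK kinases and induce antiviral effectors, many through a short repeated element in their promoters. Of the 47 genes of this list 40 (85.1%, against 22.7%) were called higher in H1975 and 2 (4.26%) in PC-9, with a median of -2.05. The element, searched on either strand as GAAA, any 2 bases and GAAA, was present in 26 of the 37 list members with a promoter in the table (70.3%) and in 3.65% of the 27305 promoters. A promoter counted as 1 however many matches it held. It was found in 22 of the 33 members higher in H1975 and in both members higher in PC-9. Stretches of 110 bases are shown for 3 of the largest differences (RefSeq, GRCh38.p14, gene strand, 5′ to 3′), with matches in capitals: IFI27 at chr14:94110566-94110675 (plus strand), BST2 at chr19:17405720-17405829 (minus strand) and IFIT1 at chr10:89392445-89392554 (plus strand).
IFI27: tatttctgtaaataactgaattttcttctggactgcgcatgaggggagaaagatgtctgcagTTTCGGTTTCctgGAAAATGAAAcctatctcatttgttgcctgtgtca
BST2: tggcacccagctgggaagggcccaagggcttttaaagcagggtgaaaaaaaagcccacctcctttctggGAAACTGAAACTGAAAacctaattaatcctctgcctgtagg
IFIT1: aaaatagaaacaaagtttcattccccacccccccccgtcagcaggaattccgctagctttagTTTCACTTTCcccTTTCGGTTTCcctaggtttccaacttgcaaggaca
Each stretch holds 2 matches, which in BST2 overlap. A match describes the letters of the window and nothing of the factor. BST2 read 12.60, 12.48 and 12.74 in the H1975 arrays and 3.69, 3.57 and 4.02 in the PC-9 arrays. IFIT1, which binds foreign RNA, read 12.44, 12.19 and 12.40 in the H1975 arrays and 3.81, 4.79 and 4.78 in the PC-9 arrays. Both were at the background level in PC-9 and far above it in every H1975 array. In PC-9 8 of the 47 were at the background level and in H1975 2. The 2 genes higher in PC-9 were GBP3 (1.22 ± 0.12), a guanylate-binding protein, and EPSTI1 (0.68 ± 0.24), whose call was lost without PC-9 array 3 (0.43, adjusted p = 0.185) and also without H1975 array 2 (0.63, adjusted p = 0.0726) or 3 (0.65, adjusted p = 0.0625).

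The sensors and signalling proteins upstream had a median of -0.33, or -0.52 without the dimmest probe sets. Of 36 probe sets 16 (44.4%) were called higher in H1975 and 8 (22.2%) in PC-9. IRF9 (-2.91 ± 0.19), the DNA sensor AIM2 (-2.44 ± 0.26) and the RNA sensor IFIH1 (-2.44 ± 0.16) were higher in H1975, and the RNA sensor TLR3 (0.98 ± 0.14) and STAT3 (0.74 ± 0.11) in PC-9. Of 42 NF-kB and cytokine probe sets 23 (54.8%) were called higher in H1975 and 11 (26.2%) in PC-9. CCL2 read 13.64, 13.73 and 13.93 in the H1975 arrays and 4.17, 4.08 and 3.93 in the PC-9 arrays. The neutrophil chemokines CXCL5 (-6.61 ± 0.18) and CXCL1 (-4.51 ± 0.20) were also higher in H1975. The membrane chemokine CXCL16 (6.26 ± 0.11), the iron carrier LCN2 (5.02 ± 0.12) and PTGS2 (4.82 ± 0.21), which makes prostaglandins, were higher in PC-9.

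Antigen presentation did not follow the interferon genes as a block. Of 31 probe sets 11 (35.5%) were called higher in PC-9 and 8 (25.8%) in H1975. The peptide transporter TAP1 (-1.18 ± 0.22), the immunoproteasome subunit PSMB9 (-1.26 ± 0.14) and the stress ligand MICA (-1.24 ± 0.17) were higher in H1975. The class II chains HLA-DRB1 (5.14 ± 0.22), HLA-DQB1 (4.82 ± 0.23) and HLA-DRA (3.29 ± 0.23) were higher in PC-9. HLA-DRB1, which presents peptides to helper T cells, read 3.79, 3.81 and 3.95 in the H1975 arrays and 8.95, 9.15 and 8.88 in the PC-9 arrays. It was at the background level in every H1975 array. Of 33 checkpoint ligand probe sets 11 (33.3%) were called higher in PC-9 and 8 (24.2%) in H1975. VTCN1 (5.58 ± 0.26) and TNFSF15 (4.56 ± 0.24) were higher in PC-9 and PVR (-1.87 ± 0.10) and TNFSF9 (-2.33 ± 0.21) in H1975. CD274, the ligand PD-L1, read 7.90, 7.54 and 8.01 in the H1975 arrays and 7.99, 8.24 and 8.26 in the PC-9 arrays, and was not called (adjusted p = 0.103). Of 14 probe sets of the urokinase system, which activates plasmin, 6 (42.9%) were called higher in PC-9 and 3 (21.4%) in H1975. PLAU (1.61 ± 0.12) and its receptor PLAUR (0.64 ± 0.15) were higher in PC-9.

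More proliferation genes were called higher in H1975 than in PC-9. Of 42 probe sets of G1/S and DNA replication 22 (52.4%) were called higher in H1975 and 10 (23.8%) in PC-9, and of 39 of G2/M and mitosis 21 (53.8%) and 6 (15.4%). MKI67, the antigen of cycling cells, read 12.26, 12.68 and 12.46 in the H1975 arrays and 11.40, 10.75 and 11.33 in the PC-9 arrays. CCNB1, cyclin B1, read 11.55, 11.68 and 11.73 in the H1975 arrays and 10.73, 10.93 and 11.15 in the PC-9 arrays. Both were higher in every H1975 array, with differences of -1.31 ± 0.15 and -0.72 ± 0.13. The replication genes UHRF1 (-2.70 ± 0.13), POLE2 (-2.15 ± 0.27) and MCM10 (-1.97 ± 0.20) were higher in H1975. The inhibitors CDKN2A (3.51 ± 0.26) and CDKN2B (1.87 ± 0.20) and, of the mitotic genes, FOXM1 (1.13 ± 0.13) were higher in PC-9. In 23 housekeeping reference genes 7 (30.4%, against 21.3%) were higher in PC-9 and 7 (30.4%, against 22.7%) in H1975, with a median of -0.09. None of them lay at the background level. Genes picked as references were thus called more often than all probe sets, and shares near 30.4% in other lists do not set those lists apart. The list of cell death regulators was mixed, with 15 of 36 probe sets (41.7%) called higher in PC-9, 12 (33.3%) in H1975 and a median of 0.16. CFLAR (1.57 ± 0.10) and BCL2L1 (1.67 ± 0.15), which hold back apoptosis, were higher in PC-9, as was GSDME (2.91 ± 0.22). The death receptor TNFRSF10B (-1.34 ± 0.15), MLKL (-1.67 ± 0.21) and PMAIP1 (-1.08 ± 0.20) were higher in H1975.

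Genes that neighbour each other on a chromosome were then read in order, as runs of at least 5 named genes in a row with a call of at least 2-fold in 1 direction. There were 30 runs among 16956 genes. The 3 longest, of 24, 19 and 17 genes, were higher in H1975 and consisted almost wholly of zinc finger genes (ZNF symbols), many of which encode repressors that bind repeated DNA. This grouping was made after the values were seen. Of 233 ZNF probe sets on chromosome 19, 182 (78.1%) were called higher in H1975 and 7 (3.00%) in PC-9, with a median difference of -1.11. Per array their median level was 9.03, 9.12 and 9.01 in H1975 and 7.69, 7.58 and 7.63 in PC-9. The ranges of the 2 lines were more than 1 log2 unit apart. Of 249 ZNF probe sets on other chromosomes 67 (26.9%) were higher in H1975 and 51 (20.5%) in PC-9, with a median of -0.06, and of 1023 other named probe sets on chromosome 19, 267 (26.1%) and 177 (17.3%), with a median of -0.01. The ZNF genes higher in H1975 were not confined to chromosome 19: a run of 5 on chromosome 7 (ZNF736, ZNF680, ZNF138, ZNF273 and ZNF92) was also higher in H1975, with differences between -2.52 and -1.25. Zinc finger paralogs share sequence, so neighbouring members may share signal. TRIM28, the corepressor through which many of these proteins act, was itself higher in H1975 by 1.52 (12.93 against 11.41, named after its values were seen).

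**Figure D4:**
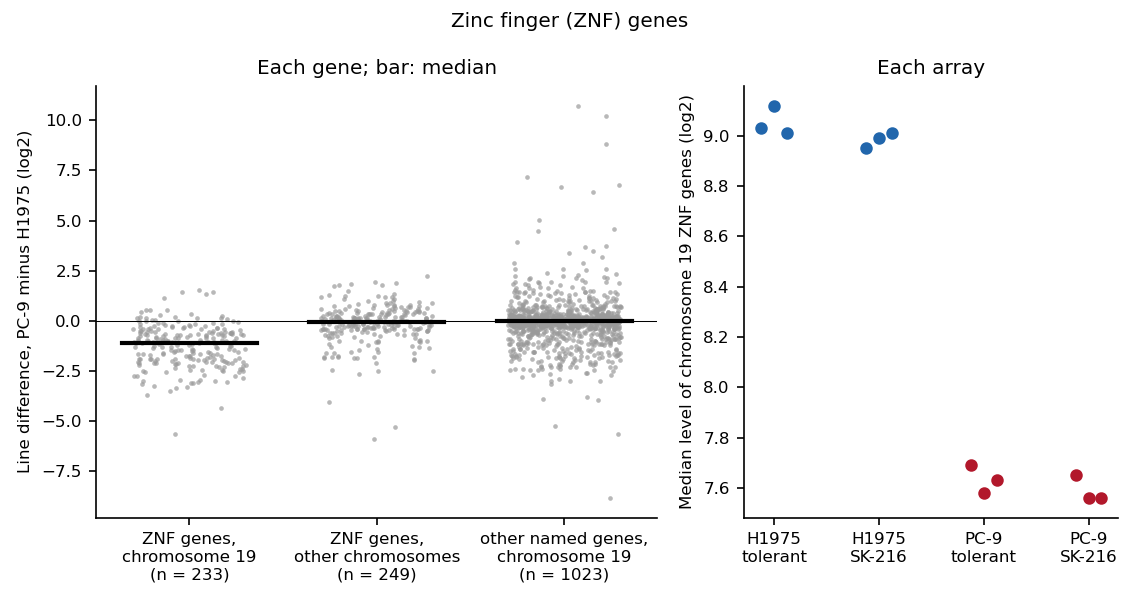
Left, line difference on the log2 scale of every ZNF probe set on chromosome 19 (233), on other chromosomes (249) and of other named probe sets on chromosome 19 (1023), with a bar at each median. Right, median log2 level of the chromosome 19 ZNF probe sets in each of the 12 arrays; H1975 arrays lie between 8.95 and 9.12 and PC-9 arrays between 7.56 and 7.69.

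Other runs held gene families and mixed neighbours. A run of 12 histone genes was higher in H1975 (differences between -4.83 and -1.06). A run of 6 class II genes (HLA-DRA to HLA-DOB) was higher in PC-9 (1.10 to 5.14), as was 1 of 5 genes around the adhesion receptors ADGRF5, ADGRF1 and ADGRF4 (1.25 to 7.78) and 1 of 5 that held CYP2S1, AXL and TGFB1 (1.14 to 3.70). Over all named probe sets, ZNF genes included, 24.1% were called higher in H1975 and 22.4% in PC-9. By whole chromosome, leaving out ZNF genes, chromosome 14 had 44.1% of 549 named probe sets called higher in H1975 and 11.7% in PC-9. Chromosome 10 had 39.4% and 13.8% of 667. Chromosome 18 had 38.2% and 14.1% of 241. Chromosome 13 leaned the other way, with 11.1% of 288 higher in H1975 and 40.3% in PC-9. These chromosomes were named for their shares, after the values were seen, and others leaned too. Chromosome 20 had 31.5% higher in H1975 and 13.7% in PC-9, and chromosome 2 had 20.9% and 30.8%.

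The arrays with SK-216 gave a reading of the line difference in other samples of the same 2 lines. Both readings share 1 estimate of the spread for each probe set, so their calls are not fully independent. There 9406 probe sets (43.9%) were called. Of the 9433 called in tolerant cells 7847 (83.2%, and 83.4% of the calls with SK-216) were called in the same direction and 28 in the opposite one. Of the 4548 calls of at least 2-fold, 4417 (97.1%) were. A change of the line difference with SK-216 was called for 304 probe sets (1.42%). The epithelial junction list kept a median of 2.08 with SK-216, the NRF2 list 1.70 and the chromosome 19 ZNF probe sets -1.22. The interferon response list had a median of -0.92 with SK-216 against -2.05 without, and 21 of its 47 members were called as changed. Other lists moved too, with few members called as changed. The G2/M and mitosis list had 11 of 39 members called higher in PC-9 and 13 in H1975 with SK-216, against 6 and 21 without, and its median went from -0.35 to -0.15, with 1 member called as changed. CCNB1 was not called with SK-216 (adjusted p = 0.422). The antigen presentation list had 17 of 31 higher in PC-9 and 5 in H1975, against 11 and 8, and its median went from 0.08 to 0.72, with 5 called as changed. The median of the TCA cycle and glutamine list went from -0.23 to 0.03, with 2 of 36 called as changed. IFIT1 read 10.19, 10.45 and 10.36 in the H1975 arrays and 4.53, 4.91 and 4.93 in the PC-9 arrays with SK-216, so that its line difference moved from -7.88 to -5.54, and the lines still did not overlap.

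**Figure D5:**
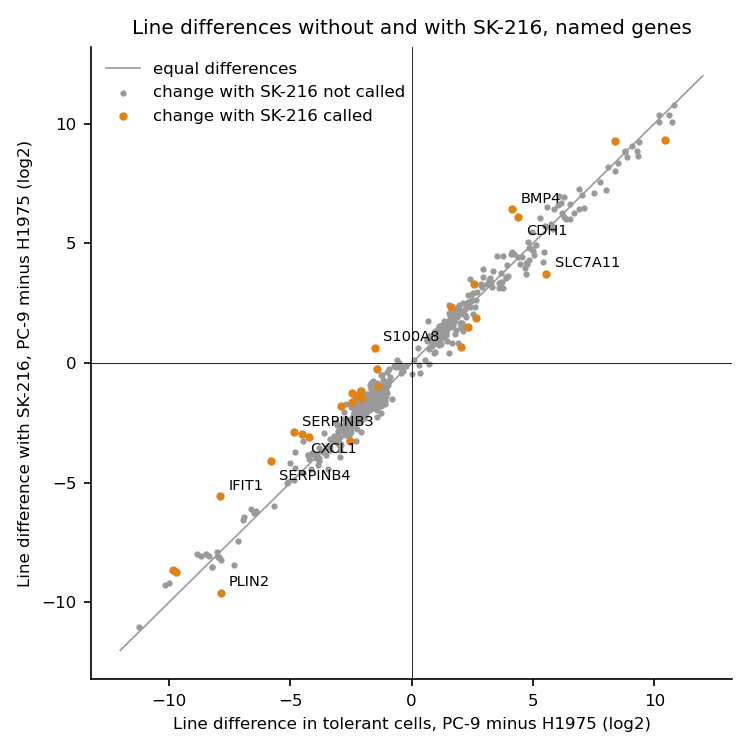
Line difference with SK-216 (y axis) against line difference in tolerant cells (x axis), both PC-9 minus H1975 on the log2 scale, for the 499 named probe sets, with the diagonal of equal differences; orange points have a called change between the 2. Most points lie along the diagonal, and the 28 with a called change include IFIT1, above it, and PLIN2 and SLC7A11, below it.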

How the data were processed

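RNA from tolerant PC-9 and tolerant H1975 cells was read on 6 arrays of 1 colour, 3 per line, within a series of 12 arrays in 4 groups. The deposited values are signals on a log2 scale that the authors had made, with 1 value for each probe set on each array. Per the submitters' processing notes the tool was Transcriptome Analysis Console. Its version, the summarisation, the normalization and the array's genome build were not given in the sources used here. Values were not renormalized. Precision is limited by the number of arrays.

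A single gene symbol was held by 17709 of the 21448 probe sets and none by 3739. Symbols were taken from the platform annotation and updated through a RefSeq gene table of GRCh38.p14. Another probe set with the same 12 values existed for 78.

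A linear model of 4 group means over 12 arrays was fitted with limma 3.58.1 in R 4.3.3 (lmFit, eBayes with a trend), with 8 residual degrees of freedom and 14.99 prior ones in the median. Tests were two-sided, adjusted by Benjamini-Hochberg over all probe sets, and none was filtered out. In simulated data over 21448 probe sets, differences of 0.5, 1 and 2 were planted in 67, 67 and 66 probe sets, with independent noise. Of these 25.4%, 86.6% and 100% were recovered, with 4 false calls among 21248 unchanged. In the real data 44% of probe sets were called. The cutoff on p depends on the share that differs, so neither the recovery nor the false calls carry over to the real calls.

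The comparison, 47 gene lists (1592 genes, 1431 measured) and 7 marker lists were chosen with earlier results of these data known. Gene lists are described by counts and medians, with no set test. Named genes were the 15 largest called differences each way without overlap, up to 3 called members of each list each way, the 10 largest each way among genes at background in 1 line, members of runs, and EGFR, ERBB2, ERBB3, MET, AXL, FGFR1, IGF1R, VIM, CDH1, EPCAM, NKX2-1, NAPSA, MKI67, CCNB1, PLAU, PLAUR, CD274 and ALDH1A1, 499 probe sets in all, of which the text gives a part. Y-linked genes and 1 X-linked gene were left out of naming. Promoters were those of the RefSeq table (GRCh38.p14). Same-numbered arrays of the 2 lines did not deviate together (correlations of deviations -0.0185, -0.045 and -0.0133), so replicate numbers were not used to pair them. The alternatives were other eBayes settings, the 6 arrays alone, a replicate block, other scalings, filters on dim probe sets, array weights, a single probe set per symbol, stricter thresholds and leaving out each tolerant array. Figures were drawn with matplotlib 3.10.9.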

Additional observations from a re-analysis of the deposited data

Results flagged for a closer look

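For 28 named genes the line difference itself changed with SK-216, by a test of the difference of the 2 line differences in the limma fit (adjusted p up to 0.0477). Values are the line difference with SK-216 minus that in tolerant cells, on the log2 scale ± standard error, and over all probe sets 1.42% were so called. Named genes were chosen partly by size in tolerant cells, which enters this change, and the tolerant arrays are shared by both.

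In 16 genes that were higher in tolerant H1975 the change was positive. Interferon genes were IFIT1 (2.34 ± 0.31), IFIH1 (1.18 ± 0.23), IFI27 (1.17 ± 0.25) and the factor IRF9 (1.10 ± 0.27). Secreted and epithelial defence genes were S100A8 (2.16 ± 0.36), SERPINB3 (1.96 ± 0.37), SERPINB4 (1.71 ± 0.27), CXCL1 (1.54 ± 0.29), WFDC2 (1.21 ± 0.26) and CCL2 (0.97 ± 0.24). The others were STON2 (1.16 ± 0.23), the metallothioneins MT1H (0.92 ± 0.21) and MT2A (0.44 ± 0.11), the enzymes ALDH9A1 (0.92 ± 0.16) and ASS1 (0.83 ± 0.13), and S100A6 (0.61 ± 0.15). S100A8 was the 1 gene of the 28 whose difference changed sign, from -1.51 to 0.65. In PLIN2 (-1.72 ± 0.30) and UPP1 (-0.70 ± 0.17) the gap toward H1975 was wider with SK-216.

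Of genes higher in tolerant PC-9, the gap was wider with SK-216 for BMP4 (2.26 ± 0.37), CDH1 (1.74 ± 0.19), SPP1 (0.87 ± 0.22), the sterol enzyme HMGCS1 (0.76 ± 0.14) and PLAU (0.72 ± 0.18). It was narrower for the amino acid transporters SLC7A11 (-1.81 ± 0.13) and SLC7A5 (-0.80 ± 0.12), the AP-1 factor FOSL1 (-1.37 ± 0.23), ESRP1 (-1.15 ± 0.29) and CCND1 (-0.76 ± 0.16). Groups of 3 arrays were not tested for single arrays far from the rest.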

How the results depend on the processing

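The count of 9433 called probe sets fell to 5086 (2372 higher in PC-9, 2714 in H1975) when differences were tested against 0.5 with limma's treat, which calls differences beyond that size. Under the other 11 settings that kept all 6 tolerant arrays it lay between 7962 (adjusted p below 0.01) and 9468 (array weights). With the replicate block 9339 were called, against 9433 without it. Leaving out each array gave 8777 to 9041 calls, 4203 to 4394 of them higher in PC-9 and 4529 to 4647 in H1975, and 4515 to 4603 of at least 2-fold. The count of runs was 30 with at least 5 genes and a 2-fold call, 73 with at least 4 genes and 146 with no minimum difference. Genes high in 1 line alone numbered 62 (PC-9) and 43 (H1975) with a high level of 9, 31 and 22 with 11, 41 and 31 after quantile normalization, and 42 to 49 and 29 to 37 without 1 array. Of 495 called named probe sets 33 lost the call in at least 1 of 18 alternatives, each of them under treat and 11 also without 1 array, and 0 changed direction. Most named probe sets had been picked as large, called differences without overlap between the lines. That choice largely fixed how many would keep their call and direction, so these counts do not carry over to other probe sets. The 11 that lost the call without 1 array were AFP, DSG2, DSP, EPSTI1, HOXC9, IFNLR1, ONECUT2, S100A16, SCG5, SCGB3A1 and SLC30A3. List medians changed sign for 11 of 48 lists, in each of which the median was within 0.0933 of 0. The medians of 18 further lists kept their sign and moved by over 1.5 times in at least 1 setting. Of those printed, the farthest values were 0.76 for keratins, -0.54 for the mesenchymal list, -0.82 for BMP and -0.52 for the interferon sensors, each without the dim probe sets, which leaves fewer members, and 0.20 for antigen presentation. The TCA cycle median was -0.15 without PC-9 array 1. With 3 arrays per line, what can be called is limited near the background level and, for small differences, at high levels too. DSG2 (mean 13.66 in H1975 and 13.31 in PC-9) and DSP (13.03 and 12.68) lost their calls far above background. In the simulated data, which held far fewer differences, planted differences of 0.5 were often missed.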

Other observations

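Several gene groups outside the comparisons above also differed between tolerant lines. Of 28 targets of p53, 12 (42.9%, against 22.7% over all probe sets) were called higher in H1975 and 8 (28.6%) in PC-9. PLK2 (2.48 ± 0.09) and GADD45A (1.17 ± 0.14), both induced by DNA damage, were higher in PC-9, and the receptor EDA2R (-1.43 ± 0.22) in H1975. Of 19 S100 calcium-binding proteins 8 (42.1%) were higher in H1975, among them S100A3 (-2.13 ± 0.22) and S100A6 (-2.06 ± 0.11). S100A14 (4.97 ± 0.18) had the largest difference toward PC-9. In the urokinase list vitronectin, VTN (-2.51 ± 0.22), was higher in H1975.

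Genes at the background level in 1 line and at 10 or more in the other included surface and secreted proteins of several kinds. High in PC-9 alone were the myelin and lymphocyte protein MAL (8.50 ± 0.20), the ectoenzyme ENPP5 (9.08 ± 0.24) and KLK6. High in H1975 alone were BASP1 (-8.35 ± 0.23), a membrane protein of nerve endings, and IL7R, which read 13.70, 13.96 and 13.69 in the H1975 arrays and 3.74, 3.56 and 4.02 in the PC-9 arrays. IL7R is otherwise known from lymphocytes. Of the 13 leukocyte markers 6 lay at the background level in both lines, PTPRC, CD3D and CD2 among them, and 3 were called, CD14 and CD68 higher in H1975 and LYZ in PC-9. Their part in the IL7R difference was not tested.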
